A study of Mus musculus with 8 samples.

Results

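Laminin-binding integrins are adhesion receptors that form complexes with the tetraspanin CD151, and their subunit genes were compared between glomeruli with and without Cd151. The members were the rows of the array's signal table listed under the symbols Itga3, Itga6, Itga7, Itgb1 or Itgb4. These are 5 of the 18120 gene symbols on the array and were covered by 7 of its 25697 probes, 1 each for the alpha subunit genes and 2 each for the beta subunit genes. Glomerular RNA of 8 male FVB/N mice aged 3 weeks was hybridised to Illumina MouseRef-8 bead arrays, 1 mouse per array. The 4 Cd151+/+ mice had intact Cd151, and the 4 Cd151-/- mice of the same strain were homozygous for its deletion. The study asked how glomerular gene expression differed at an early stage of the kidney disease that develops in this strain without CD151. Glomeruli had been pulled out of digested kidneys with magnetic beads perfused through the mouse, so each sample was a mixture of cells. Podocytes, endothelial cells and mesangial cells make up the glomerulus, and tubule and red cell transcripts were also measured in the samples, as given below. In such bulk RNA, fewer cells of a type and less RNA per cell cannot be told apart.

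Integrins are receptors made of an alpha and a beta chain that span the cell membrane, hold extracellular matrix outside and connect to the actin or keratin cytoskeleton inside. The alpha chains encoded by Itga3, Itga6 and Itga7 recognise laminins, the cross-shaped proteins that build basement membranes. All of them pair with the beta1 chain, and alpha6 also pairs with beta4, the chain at the core of hemidesmosomes. CD151 is a membrane protein with several transmembrane segments that binds these receptors, alpha3beta1 most tightly, and gathers them in the plane of the membrane. In the kidney, alpha3beta1 on the podocyte foot processes is a main anchor of the podocyte to the laminin of the glomerular basement membrane.

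Signal is the mean brightness of the beads that carry a probe. It is given below as the normalised log2 signal, after the background was removed, an offset of 16 was added and the arrays were quantile normalised. A difference is the mean of Cd151-/- minus the mean of Cd151+/+ on that scale, and a probe counts as detected on an array when its detection p-value, the share of negative-control probes at least as bright, was 0.05 or lower. The brightest Cd151 probe checked the genotypes, with values from 14.15 to 14.62 in the Cd151+/+ mice and no detection in any Cd151-/- mouse, a signal at least 523-fold lower (limma adjusted p = 6.51e-10). Between 11291 and 12359 probes were detected per array, and their median signal exceeded the background 3.00 to 4.46 times. The background itself split the arrays into 2 sets of 4 that each held 2 mice of either genotype. It lay between 59.0 and 69.5 in the lower set (Cd151+/+ mice 1 and 2, Cd151-/- mice 3 and 4) and between 123 and 135 in the higher set (Cd151+/+ mice 3 and 4, Cd151-/- mice 1 and 2). The podocyte markers Cdkn1c, a cell cycle inhibitor of mature podocytes, and Ptpro, a receptor phosphatase of their surface, had mean values of 15.50 and 13.46 in Cd151+/+ mice. The tubule marker Umod, the uromodulin gene, was also present, at 14.31.

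No laminin-binding integrin gene passed the test for a genotype difference. Of the 7 probes, 6 were detected on all 8 arrays and were tested, covering Itga3, Itga7, Itgb1 and Itgb4, while the single Itga6 probe was detected on none. With the limma fit over all 14967 probes that at least 1 array detected, 0 of the 6 passed a Benjamini-Hochberg adjusted p of 0.05, beside 0.0334% of all probes tested. None of the 6 had an unadjusted p of 0.05 or lower, beside 4.30% of all probes (1.69% higher and 2.61% lower in Cd151-/- mice), and in none were the groups separate, beside 2.31%. The mean was lower in Cd151-/- mice for 5 of the 6 probes, beside 50.9% of all probes. The differences ran from −0.54 to 0.15, and the median within-group SD over all probes tested was 0.38. A missed threshold does not show equal levels, so the interval of each difference is given with it.

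**Figure D1:**
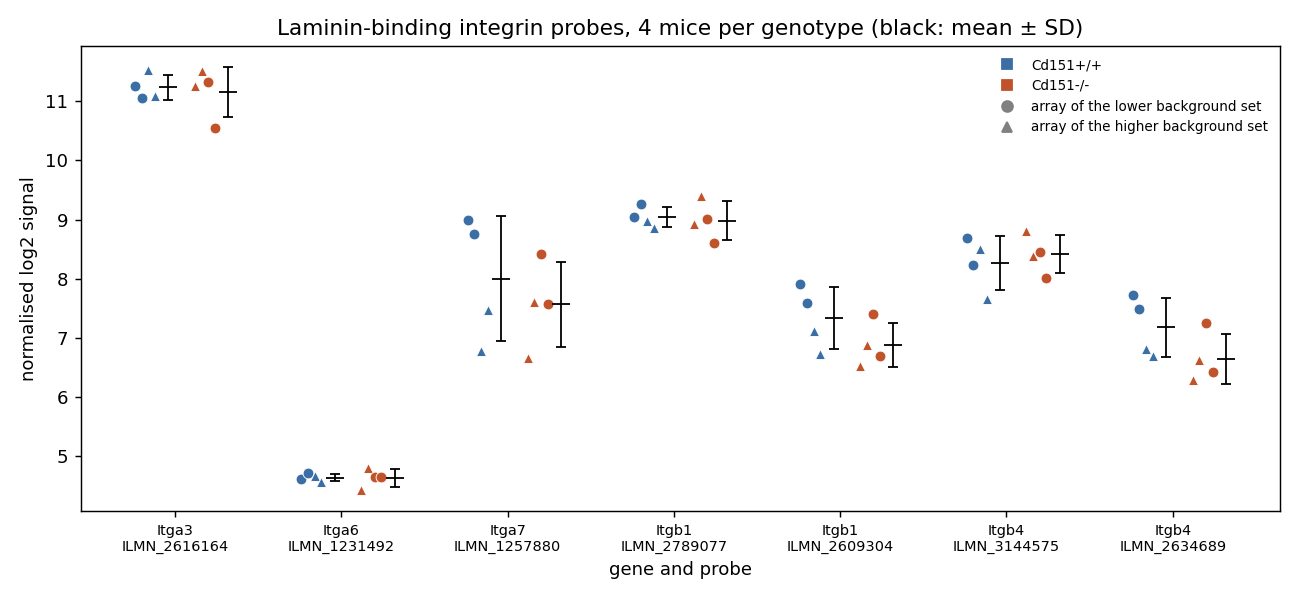
Normalised log2 signal (vertical axis) of the 7 integrin probes (horizontal axis) in each of the 8 mice, blue for Cd151+/+ and orange for Cd151-/-, with circles for arrays of the lower and triangles for arrays of the higher background set and black bars for the mean ± SD of 4 mice. For each tested probe the mice of the genotypes overlap, and the Itga6 probe lies at the floor on every array. Heights of different probes are not comparable.

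Itga3 encodes the alpha3 chain, the laminin-recognising part of the receptor that CD151 binds most tightly. The normalised log2 signal of its probe (ILMN_2616164) was 11.27, 11.06, 11.53 and 11.09 in Cd151+/+ mice 1 to 4. It was 11.26, 11.51, 11.32 and 10.54 in Cd151-/- mice 1 to 4. Apart from Cd151-/- mouse 4, which was the lowest of all 8, the Cd151-/- mice lay within the range of the Cd151+/+ mice. The means were 11.24 ± 0.21 and 11.16 ± 0.42 (SD, n = 4 each), a difference of −0.08 with an SE of 0.25 (limma adjusted p = 0.962, two-sided exact permutation p = 0.771). The 95% interval, −0.63 to 0.47, corresponds to signals between 0.644 and 1.39 times those of Cd151+/+ mice. The deposited signal of this probe was 13.9 to 38.6 times the background of its array, and its precision was limited by the spread between mice and by their number. Leaving out Cd151-/- mouse 4 turned the difference to 0.12, and leaving out Cd151+/+ mouse 3 turned it to 0.01.

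Cd151-/- mouse 4 also stood apart in the cell type markers. The median deviation of the 7 tested podocyte markers from their 8-mouse means was −0.58 in this mouse, and between −0.17 and 0.17 in the other 7. Its proximal tubule markers had the highest median deviation of all mice, 0.90, and its mesangium and smooth muscle markers the lowest, −0.94. The log2 signals of the 7 podocyte markers summed to between 86.9 and 88.4 in the Cd151+/+ mice, and the Cd151-/- mice held both the lowest sum, 82.4, and the highest, 88.8. Over the 11 tested proximal tubule markers the sums lay between 94.1 and 108 in Cd151+/+ mice, with those of the Cd151-/- mice higher on average, between 105 and 117. All 11 of these markers had higher means in Cd151-/- mice, with a median difference of 0.64 (0.39 without Cd151+/+ mouse 1, 1.02 without Cd151+/+ mouse 4). Of the 11, 2 had an unadjusted p of 0.05 or lower in the limma fit, Slc22a8 and Kap. Over all 10667 genes with a tested probe, 50.4% had a lower mean and 4.33% had such a p. Lrp2 and Pck1 were each detected in 0 Cd151+/+ and 2 Cd151-/- mice. They passed the detection filter only through the group where they were higher, so their direction carries no weight. Of the 12 podocyte markers listed, 3 were detected on no array, among them Magi2 and Cd2ap. The part of these markers in the integrin values was not tested.

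**Figure D2:**
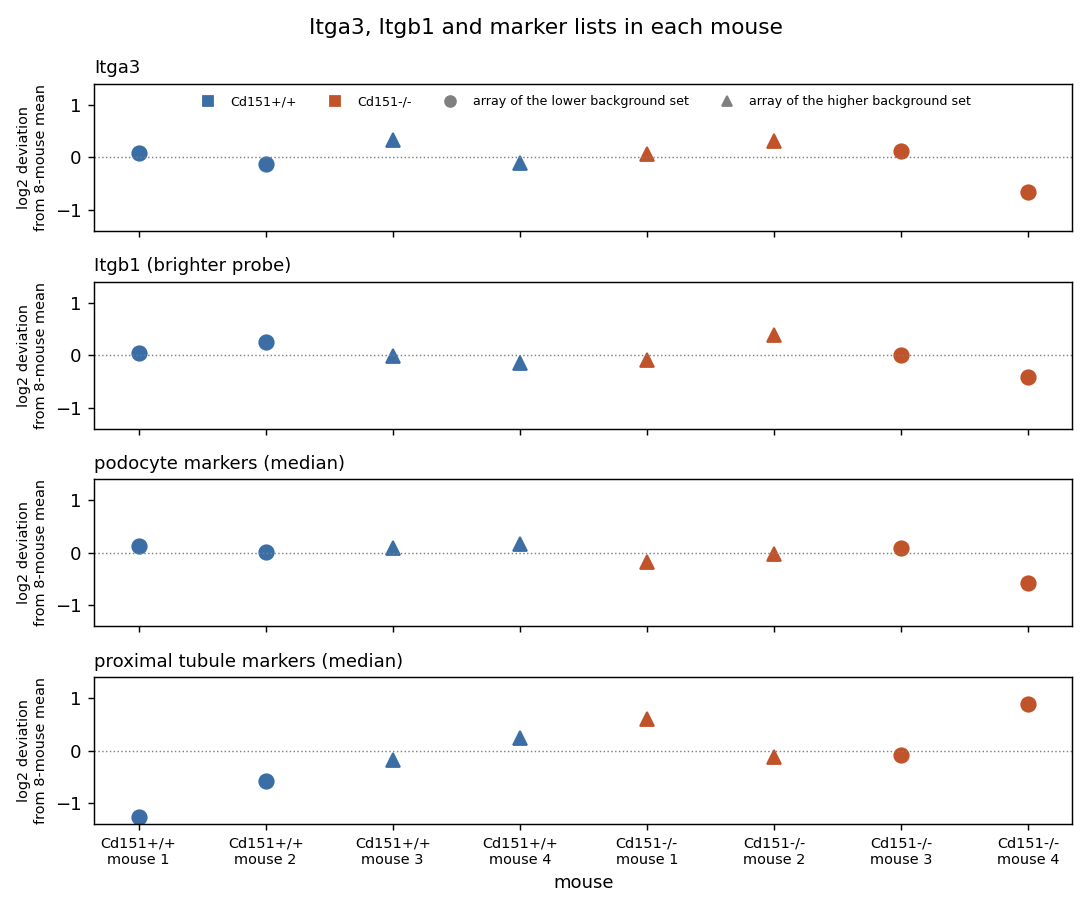
Deviation from the 8-mouse mean, in log2 units (vertical axes), for Itga3, the brighter Itgb1 probe, and the medians of the podocyte and proximal tubule marker lists in each mouse (horizontal axis). Blue marks Cd151+/+, orange Cd151-/-, circles the lower and triangles the higher background set. Cd151-/- mouse 4 is lowest in the upper 3 panels and highest in the proximal tubule panel, at 0.90.

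Itga7 encodes the alpha7 chain, best known as the laminin receptor of muscle. Its probe (ILMN_1257880) read 9.00, 8.76, 6.78 and 7.47 in Cd151+/+ mice 1 to 4 and 6.67, 7.61, 8.42 and 7.57 in Cd151-/- mice 1 to 4. The groups overlapped widely, and each genotype spanned more than the difference between their means. The means were 8.00 ± 1.05 and 7.57 ± 0.72 (SD, n = 4 each), a difference of −0.44 with an SE of 0.51 (limma adjusted p = 0.918, two-sided exact permutation p = 0.514). The 95% interval of −1.55 to 0.68 corresponds to 0.342 to 1.60 times the Cd151+/+ signal, the widest of the tested integrin probes. The Itga7 signal went with the background of the arrays, with a mean of 8.43 over the lower and 7.13 over the higher set. Within the lower set the genotype difference was −0.88, and within the higher set it was 0.01. With the set as a block in the fit, the interval narrowed to −1.13 to 0.26 (limma adjusted p = 0.572). The deposited signal was 1.84 to 4.29 times the background of the array.

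Itga6 encodes the alpha6 chain, which forms laminin receptors with beta1 and with beta4. Its probe (ILMN_1231492) was not well above background on any of the 8 arrays, with detection p-values from 0.276 to 0.972. The deposited signal was 0.782 to 1.06 times the background, and the order of the mice carries no information at that level. No fold or test is given for it, and the values say only that this probe gave no measurable signal in these samples.

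**Figure D3:**
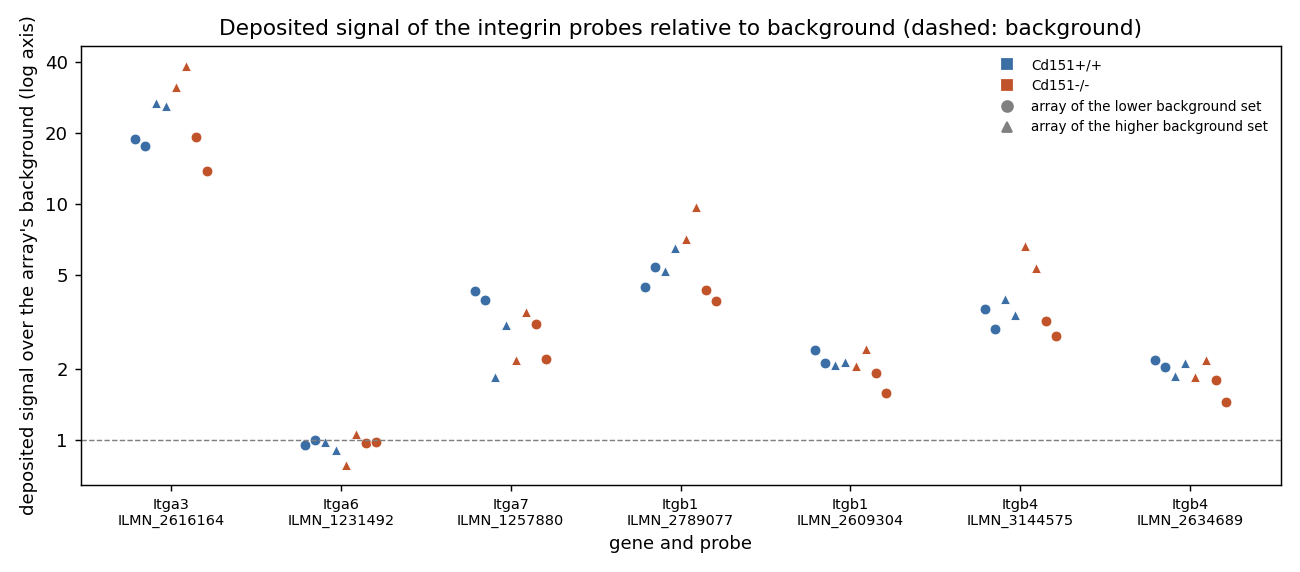
Deposited signal of each integrin probe divided by the background of its array (vertical axis, log scale) for the 7 probes (horizontal axis) in each mouse, with the dashed line at the background. Blue marks Cd151+/+, orange Cd151-/-, circles the lower and triangles the higher background set. Itga6 lies around the line, between 0.782 and 1.06, and Itga3 lies between 13.9 and 38.6.

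Itgb1 encodes the beta1 chain, the common partner of the alpha3, alpha6 and alpha7 chains and of many other alpha chains. The brighter of its 2 probes (ILMN_2789077) read 9.05, 9.26, 8.98 and 8.86 in Cd151+/+ mice 1 to 4, and 8.92, 9.39, 9.01 and 8.60 in Cd151-/- mice 1 to 4. Both the highest and the lowest of the 8 values belonged to Cd151-/- mice, numbers 2 and 4. The means of 9.04 ± 0.17 and 8.98 ± 0.33 (SD, n = 4 each) differed by −0.06 with an SE of 0.23 (limma adjusted p = 0.967, two-sided exact permutation p = 0.857). The 95% interval of −0.55 to 0.44, or 0.681 to 1.35 times the Cd151+/+ signal, was the narrowest of the tested integrin probes. The sets of arrays opposed each other, with a difference of −0.35 within the lower and 0.24 within the higher set. The sign also turned without Cd151-/- mouse 4, to 0.07, and without Cd151+/+ mouse 2, to 0.02.

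The dimmer Itgb1 probe (ILMN_2609304) read 7.91, 7.59, 7.11 and 6.72 in Cd151+/+ mice 1 to 4. It read 6.53, 6.89, 7.40 and 6.69 in Cd151-/- mice 1 to 4. Here 3 of the 4 Cd151-/- mice lay below 3 of the 4 Cd151+/+ mice, and the arrays of the lower set lay above those of the higher set by 0.59 on average. The difference was −0.46 with an SE of 0.30 and a 95% interval of −1.12 to 0.20 (limma adjusted p = 0.918, two-sided exact permutation p = 0.2). It kept its sign in both sets, −0.70 in the lower and −0.21 in the higher. This probe reached only 1.58 to 2.44 times the background.

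Itgb4 encodes the beta4 chain, which has a long cytoplasmic tail and joins alpha6 to the keratin filaments of epithelial cells. Its brighter probe (ILMN_3144575) read 8.68, 8.23, 8.50 and 7.65 in Cd151+/+ mice 1 to 4, and 8.81, 8.39, 8.46 and 8.02 in Cd151-/- mice 1 to 4. The lowest value came from Cd151+/+ mouse 4 and the highest from Cd151-/- mouse 1, and the others overlapped. With means of 8.27 ± 0.45 and 8.42 ± 0.33 (SD, n = 4 each), the difference was 0.15 with an SE of 0.27 (limma adjusted p = 0.934, two-sided exact permutation p = 0.6). Its 95% interval was −0.45 to 0.75, or 0.732 to 1.69 times the Cd151+/+ signal. The difference was −0.22 within the lower set, 0.52 within the higher set and −0.05 without Cd151+/+ mouse 4.

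The dimmer Itgb4 probe (ILMN_2634689) read 7.72, 7.49, 6.81 and 6.70 in Cd151+/+ mice 1 to 4 and 6.29, 6.63, 7.25 and 6.42 in Cd151-/- mice 1 to 4. All but mouse 3 of the Cd151-/- group lay below every Cd151+/+ mouse. The difference of −0.54, with an SE of 0.30 and a 95% interval of −1.20 to 0.13, was the largest in size of the 6 tested probes (limma adjusted p = 0.918, two-sided exact permutation p = 0.171). Lower-set arrays exceeded higher-set arrays by 0.61 on average, and the difference was −0.77 within the lower and −0.30 within the higher set. With the set as a block the interval became −1.03 to −0.05, and this was the only integrin probe to reach an unadjusted p of 0.05 in that fit (limma unadjusted p = 0.0353, adjusted p = 0.423), where 11.3% of all probes did so and 6.08% did so with a lower mean in Cd151-/- mice. No integrin probe passed the adjustment in that fit, beside 0.0535% of all probes. Its signal was 1.45 to 2.19 times the background.

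**Figure D4:**
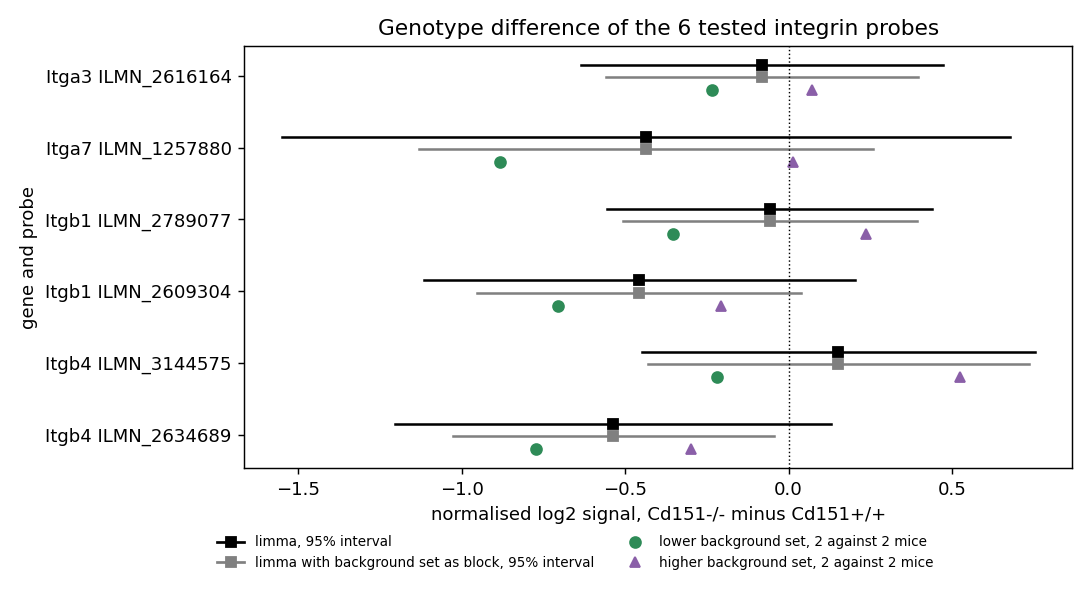
Genotype difference in normalised log2 signal (horizontal axis, Cd151-/- minus Cd151+/+) for the 6 tested integrin probes (vertical axis). Black squares and bars give the limma estimate and 95% interval, grey ones the same with the background set as a block, and green circles and purple triangles the differences within the lower and the higher set, 2 against 2 mice each. Every black interval spans 0, and of the grey intervals only that of the dimmer Itgb4 probe, −1.03 to −0.05, does not.

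The probes of a gene did not give the same difference. For Itgb4 the brighter probe exceeded the dimmer one by 1.09 ± 0.41 in Cd151+/+ and by 1.77 ± 0.55 in Cd151-/- mice (SD, n = 4 each), a change in the gap of 0.69 (two-sided exact permutation p = 0.0857, where 0.0286 is the smallest that 4 against 4 mice allow). For Itgb1 the gap was 1.70 ± 0.42 and 2.10 ± 0.42 (two-sided exact permutation p = 0.257). The gap also went with the sets of arrays, averaging 1.58 in the lower and 2.23 in the higher set for Itgb1, and 1.13 and 1.73 for Itgb4. With the tested probes of the gene averaged, the Itgb4 difference turned to −0.19, and that of Itgb1 was −0.26 (limma unadjusted p = 0.291). Whether the probes match different transcripts of a gene was not tested.

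The genes whose signal ran most like that of each integrin over the 8 arrays differed from member to member. These are descriptions over 8 arrays that all genes share, with no test. Nearest to Itga3 were Prkcdbp, now named Cavin3 (Pearson r = 0.987), Litaf (r = 0.965) and Sox12 (r = 0.962). Nearest to the brighter Itgb1 probe were P4ha1 (r = 0.971), which encodes a collagen prolyl hydroxylase subunit, Ptk2 (r = 0.967), which encodes focal adhesion kinase, and Dido1 (r = 0.963). Itga7 ran closest to Stmn2 (r = 0.993), Mdm2 (r = 0.992) and Lass5, now Cers5 (r = 0.991). For the brighter Itgb4 probe they were Ankrd36 (r = 0.949), which only 1 array detected, Inpp5e (r = 0.927) and Ncaph2 (r = 0.914).

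Around the integrins, their ligands, co-receptors and cytoplasmic partners were read with 1 probe per gene, the brightest. No gene of these 6 lists passed the Benjamini-Hochberg adjustment and in none were the groups separate. Of all 10667 genes read in this way, 50.4% had a lower mean in Cd151-/- mice, 4.33% had an unadjusted p of 0.05 or lower and 2.29% had separate groups.

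The laminin chains and nidogens are the ligands and their linkers in the basement membrane, and 9 of the 13 listed were tested. Of these, 4 had a higher and 5 a lower mean in Cd151-/- mice, with a median difference of −0.04. Lamb3, among the higher, was detected in 0 Cd151+/+ and 1 Cd151-/- mice, so its direction carries no weight. Lamb2 and Lamc1, chains of the mature glomerular laminin, had values of 11.83 ± 0.62 and 10.68 ± 0.11 in Cd151+/+ against 11.79 ± 0.78 and 10.41 ± 0.61 in Cd151-/- mice (SD, n = 4 each). In this list 1 gene had an unadjusted p of 0.05 or lower. Lama4 and Lamb1 were detected on no array, and Lama3 and Lama5 were not matched to a probe.

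Of the 6 other laminin receptors, all tested, 3 had a higher and 3 a lower mean in Cd151-/- mice, with a median difference of −0.02. Rpsa, among the higher, was detected in 0 Cd151+/+ and 1 Cd151-/- mice, so its direction carries no weight. Sdc1, which encodes the heparan sulphate proteoglycan syndecan-1, measured 7.47 ± 0.37 in Cd151+/+ and 6.55 ± 0.42 in Cd151-/- mice, a difference of −0.93 with an SE of 0.28 (limma unadjusted p = 0.00633, adjusted p = 0.918). Its 2 dimmer probes, towards the floor with 8-mouse means of 5.31 and 4.85, gave −0.02 and −0.17. Bcam, an immunoglobulin-like receptor for the laminin alpha5 chain listed on the array as Lu, measured 11.13 ± 0.65 and 10.19 ± 0.62, a difference of −0.94 with an SE of 0.38 (limma unadjusted p = 0.0301, adjusted p = 0.918). Dag1, the dystroglycan gene, differed by −0.20 (limma unadjusted p = 0.641). The Bcam p exceeded 0.05 with Cd151+/+ mouse 1 or 2 or Cd151-/- mouse 1 or 4 left out (limma unadjusted p = 0.0832, 0.0884, 0.0910 and 0.0699), while that of Sdc1 stayed below 0.05 whichever mouse was omitted.

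Of the other integrin subunits 14 of 21 were tested, 7 with a higher and 7 with a lower mean in Cd151-/- mice and a median difference of 0.08. Itgad and Itgb3, both with lower means, were each detected in 1 Cd151+/+ and 0 Cd151-/- mice. They passed the detection filter only through the group where they were higher, so their direction carries no weight. None of the 14 had an unadjusted p of 0.05 or lower, and the smallest was that of Itgb7, a beta chain of lymphocytes (−0.75, limma unadjusted p = 0.0935). With the background set as a block its p was 0.00405 (limma adjusted p = 0.355), and without Cd151-/- mouse 1 the difference was −0.47. Itga1, a collagen-binding chain of the mesangium, differed by 0.32 and Itgb5, a partner of alphav, by −0.01. Of the tetraspanins that can join integrin complexes, 7 of 9 were tested, with a median difference of 0.11. The smallest p among them belonged to Cd63, a tetraspanin of late endosomes (0.32, limma unadjusted p = 0.185), and Cd9 and Cd81, frequent companions of beta1 integrins, differed by −0.12 and −0.06.

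The adaptors and kinases of the integrin tail link the receptors to actin, and 16 of the 22 listed were tested. The mean was lower in Cd151-/- mice for 11 of these and higher for 5, with a median difference of −0.11 beside −0.0024 over all genes, and none had an unadjusted p of 0.05 or lower. Pxn, the gene of the focal adhesion scaffold paxillin, came closest, with 9.55 ± 0.28 in Cd151+/+ and 9.07 ± 0.42 in Cd151-/- mice (difference −0.48, limma unadjusted p = 0.0901, and 0.0257 with the background set as a block). Its dimmer probe, towards the floor with an 8-mouse mean of 5.56, gave −0.61 (limma unadjusted p = 0.0346). Chosen after the values were seen, Ilk, Lims2 and Parva, which encode a complex bound to the beta1 tail, differed by −0.36, −0.25 and −0.27 (limma unadjusted p = 0.2, 0.279 and 0.263). The dimmer probes did not all give the same, with −0.55 and 0.03 for Lims2 and −0.41 and −0.08 for Ilk. The Ilk probe with −0.08 also lay towards the floor, with an 8-mouse mean of 5.29. Fermt2, the kindlin of podocytes that activates beta1 integrins, differed by −0.06 and Tln1, the talin gene, by −0.15. The summed log2 signal of the 16 genes was lowest in Cd151-/- mouse 4, at 162, and highest in Cd151-/- mouse 2, at 167.

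The hemidesmosome partners of alpha6beta4 had 3 of 5 genes tested, with a median difference of 0.11 and no unadjusted p of 0.05 or lower. Plec, which encodes plectin, the link from beta4 to keratin filaments, measured 12.41 ± 0.34 in Cd151+/+ and 12.52 ± 0.36 in Cd151-/- mice, and Dst differed by −0.20. Col17a1, the transmembrane collagen of hemidesmosomes, was detected in 0 Cd151+/+ and 1 Cd151-/- mice. The keratin genes Krt5 and Krt14 were detected on no array.

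**Figure D5:**
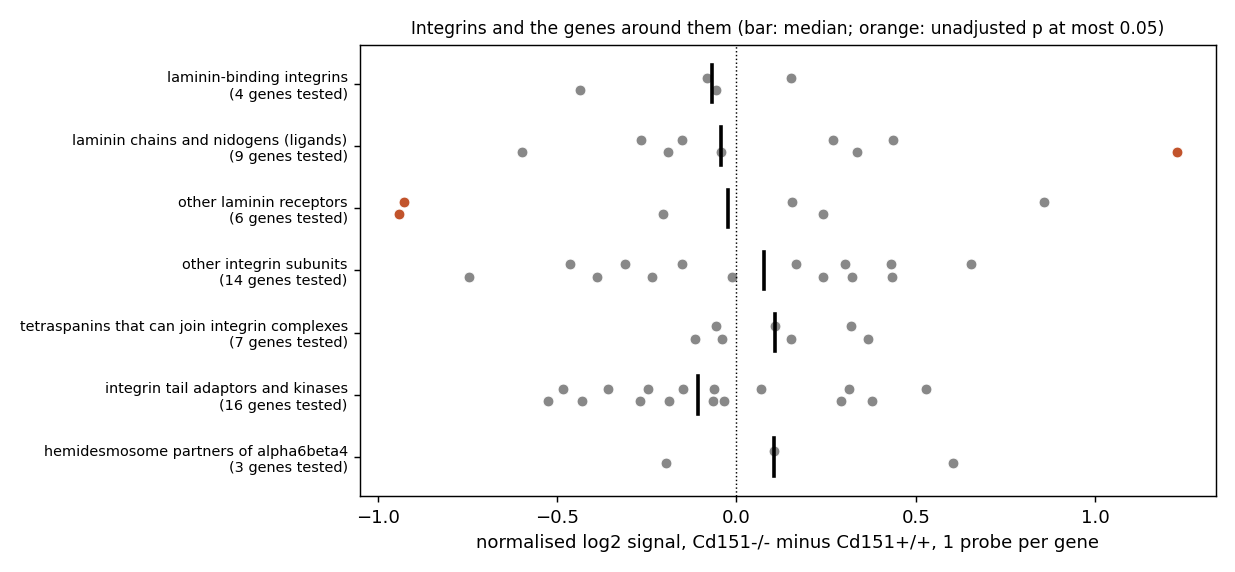
Genotype difference in normalised log2 signal (horizontal axis, Cd151-/- minus Cd151+/+), 1 point per tested gene, for the laminin-binding integrins and 6 lists of genes around them (vertical axis), with a black bar at the median of each list and orange points for an unadjusted limma p of 0.05 or lower. Sdc1 and Bcam are the orange points at −0.93 and −0.94, and no integrin is orange.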

How the data were processed

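Glomerular RNA of 8 mice was amplified, biotin-labelled and hybridised for 17 h by the authors, who deposited the signal intensity of each probe, not background-subtracted or normalised, and a detection p-value in steps of 1 over 798. GenomeStudio is named in the submitters' processing notes. A genome build is not given in the sources used here, so no coordinates are printed. In R 4.3.3, limma 3.58.1 inferred each background from the detection p-values and applied neqc (offset 16, quantile), lmFit and eBayes with Benjamini-Hochberg adjustment over the 14967 probes with a detection p of 0.05 or lower on at least 1 array. The script was tested on simulated data. Exact permutation tests ran over 70 relabelings and were two-sided. The fold for Cd151 is a bound against the lowest detected signal on each array. The number of arrays and the signal over background limit the precision.

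The members, the 6 gene lists, the markers of podocytes, glomerular endothelium, mesangium and smooth muscle, proximal tubule, distal tubule, erythroid cells and leukocytes, and the background sets were chosen with earlier results of these data known. Of the 18120 symbols, 17240 had a match, direct or by a synonym, among RefSeq genes of assembly GRCm38.p6. Named were the members, Cd151, up to 3 genes per list with the smallest p, the 3 genes most correlated with each member, and for context genes of the lists by their known function, chosen after their values were seen. Alternatives changed the background correction, normalisation (cubic spline as in the study's methods, 75th percentile), offset, filter, blocks, variance, array weights, test, probe choice and mice. No sequences of the probes were used, and some genes of the lists are not reported here by name.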

Additional observations from a re-analysis of the deposited data

How the results depend on the processing

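No integrin probe passed the adjusted p of 0.05 in any of the 19 alternative settings that gave one. At an unadjusted p of 0.05 the count of integrin probes was 1 with the background set as a block, 3 with array weights, and 0 to 1 with 1 mouse left out (1 without Cd151+/+ mouse 4 or Cd151-/- mouse 3). Over all probes that count was 643, against 389 with scaling to the 75th percentile, 420 with the replicate block, 1094 with no filter, 1690 with the set block, 4816 with array weights, and 339 to 1391 with 1 mouse left out. Itga3 reversed to 0.065 with array weights and 0.072 within the higher set, and ranged from −0.20 to 0.12 with 1 mouse left out. Itga7 was 0.013 within the higher set and −1.28 with array weights (unadjusted p = 0.0151, adjusted p = 0.0998), its adjusted p ranging to 1.00 over its settings. With array weights the dimmer Itgb1 and Itgb4 probes gave −0.82 and −0.91 (unadjusted p = 0.00813 and 0.00415, adjusted p = 0.0908 and 0.0885), against −0.65 to −0.27 and −0.74 to −0.36 with 1 mouse left out. Itgb1 was −0.35 and 0.24 within the sets, −0.26 as the mean of its probes and −0.20 to 0.069 with 1 mouse left out. Itgb4 was −0.22 within the lower set, −0.19 as the mean of its probes, and −0.055 to 0.29 with 1 mouse left out. Ptk2 ranged from −0.15 to 0.039, the latter without Cd151-/- mouse 4. With array weights the median differences moved to 0.35 for the other laminin receptors, 0.43 for the tetraspanins, −0.33 for the adaptors and −0.19 for the hemidesmosome genes. With 1 mouse left out they ranged from −0.48 (without Cd151-/- mouse 1) to 0.21 (without Cd151-/- mouse 4) for the other laminin receptors and from −0.019 to 0.26 (without Cd151+/+ mouse 4) for the other integrin subunits. The cause was not tested. Col17a1 gave no value with the stricter detection filter or without Cd151-/- mouse 4, where its probe was not tested. Mice of the same number lay in different background sets in every case. Their negative correlations (−0.58 to −0.0086) therefore cannot show whether the numbers pair mice, while pairs within a set gave 0.10 to 0.63. A replicate block by mouse number cuts across the sets in the same way. With that block the Itga3 difference stayed at −0.08 (limma adjusted p = 0.998) and no adjusted call of a named gene changed. The limma unadjusted p then exceeded 0.05 for Bcam (0.0686), Plce1 (0.0793) and Pdgfrb (0.0519). Bcam, Pdgfrb and Kap also exceeded it in the equal-variance test of group means. Probes near the background, Itga7 and the dimmer beta chain probes, limit what can be read.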

Other observations

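Marker lists of the other cell types of the kidney cortex give the setting of the integrin values. None of their genes passed the Benjamini-Hochberg adjustment in the limma fit. For comparison, 50.4% of all 10667 genes with a tested probe had a lower mean in Cd151-/- mice. An unadjusted p of 0.05 or lower was found for 4.33% of them. The podocyte markers had lower means in Cd151-/- mice for 7 of 7 tested genes (median difference −0.19, and −0.48 without Cd151-/- mouse 2), with an unadjusted p of 0.05 or lower for Plce1, a phospholipase gene (−0.56, limma unadjusted p = 0.0414). That p exceeded 0.05 without Cd151+/+ mouse 1 or 2 or Cd151-/- mouse 1 or 4, reaching 0.117. The glomerular endothelium markers had lower means for 9 of 10 (median −0.39, and −0.22, −0.23 and −0.59 without Cd151+/+ mouse 2, Cd151-/- mouse 1 and Cd151-/- mouse 3) and none with such a p. Kdr, among the 9, was detected in 2 Cd151+/+ and 0 Cd151-/- mice. It passed the detection filter only through the group where it was higher, so its direction carries no weight. The mesangium and smooth muscle markers had lower means for 5 of 7, with a median of −0.35 that turned to 0.025 without Cd151-/- mouse 4 and to 0.13 with array weights. Among them Pdgfrb, a receptor of mesangial cells, had such a p (−0.74, limma unadjusted p = 0.0399), which stayed below 0.05 only without Cd151+/+ mouse 4 or Cd151-/- mouse 3 when mice were left out in turn. Acta2 and Tagln were the 2 genes of this list with higher means (0.38 and 0.45). The dimmer Acta2 probes gave 0.71, 0.50 and 0.36, the first with a limma unadjusted p of 0.0185. Of the erythroid markers 4 of 4 had lower means (median −0.63, and −1.13 without Cd151-/- mouse 2 or −0.40 without Cd151-/- mouse 4), among them Alas2, the enzyme of haem synthesis in red cell precursors (−2.57, limma unadjusted p = 0.00519), which passed the adjustment without Cd151-/- mouse 2 (limma adjusted p = 0.0138, the lowest of a range up to 1.00), and Hba-a1 (−0.69, limma unadjusted p = 0.0276). Of the 4 erythroid genes, Hbb-b1 was detected in 0 Cd151+/+ and 1 Cd151-/- mice, and its difference of −0.02 gives no direction. The Hba-a1 signal reached the top of the normalised scale, and its difference was −1.08 with cubic spline normalisation. Its p exceeded 0.05 without Cd151+/+ mouse 1 or 2 or Cd151-/- mouse 1 or 4.

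The proximal tubule markers ran the other way, as given above. Slc22a8, an organic anion transporter, differed by 1.45 (limma unadjusted p = 0.000905, adjusted p = 0.744), and by 0.68 with signals not corrected for background. Its probe was detected in 1 Cd151+/+ and 4 Cd151-/- mice. The Cd151+/+ mean of 4.96 lies near the floor, so the size of this difference is uncertain. Kap, an androgen-regulated kidney gene, differed by 1.38 (limma unadjusted p = 0.0337). Without Cd151-/- mouse 4 the Kap difference was 0.76 (limma unadjusted p = 0.0726), and its p also exceeded 0.05 without Cd151+/+ mouse 1, 3 or 4. The distal tubule and collecting duct markers had a median difference of −0.04 over 7 tested genes and the leukocyte markers of 0.02 over 6, with no unadjusted p of 0.05 or lower in either.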
